A study of Mus musculus with 72 samples.

Results

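Islets of DBA/2J mice after 33 days of high-fat diet (HFD) were compared with islets of the same strain after 5 days, with 13 days as the middle point. The libraries were chosen by their labels alone, as strain DBA/2J and diet HFD: 4 at day 5, 3 at day 13 and 4 at day 33, together 11 of the 69 libraries with values in a series of 72 samples. All 14604 genes of the deposited table were analysed. The mice were males, 8 weeks old per the labels at every day, of the inbred strain DBA/2J. No transgene or drug is named. The diet-matched comparison used DBA/2J on regular chow (RC) with 4 libraries at day 5, 4 at day 13 and 3 at day 33, and the strain comparisons used HFD libraries of C57BL/6J and BALB/cJ with 4 at each of days 5 and 33. Islets were freed from the pancreas with Liberase, picked by hand and held in culture medium overnight, and each library carries the RNA of 120 to 150 islets from 1 mouse, so a p-value here sets a difference against the variation among mice. The overnight culture is shared by all groups. The text of the series names the days as 5, 13 and 13, whereas the sample labels give 33, which was used. The numbers in the sample titles run in series that go with the day, so day on diet and title series cannot be told apart.

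Pancreatic islets are small endocrine organs made mostly of insulin-secreting beta cells, with glucagon-secreting alpha cells, somatostatin-secreting delta cells, capillaries and a few macrophages. When a mouse eats fat-rich food, its tissues respond less to insulin, and islets are known to answer with more insulin secretion and, over weeks, with beta-cell growth. Islet cells also carry a circadian clock: BMAL1 (gene Arntl) with CLOCK or NPAS2 turns on genes through E-boxes, while the REV-ERB proteins (Nr1d1, Nr1d2) repress and the ROR proteins (Rora among their genes) activate Arntl and Npas2 through a shared DNA half-site.

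The 11 libraries held 14801231 to 28872855 reads in the tabled genes, with a median of 21624815, and values are log2 CPM, the log2 of read counts scaled to one library size. Ins1 and Ins2 together took 16.6%, 17.4%, 22.3% and 21.4% of the reads in day 5 replicates 1 to 4, and 13.9% to 16.2% at day 33, so the tissue was islet at both days. The 4 day 33 libraries lay below all 4 day 5 libraries in this share (exact permutation test, two-sided p = 0.0286, the smallest 4 against 4 can give; 0.0762 after Benjamini-Hochberg adjustment over 8 such tests). The libraries also differed in how levels ran with transcript length and GC content. Genes with the longest 20% of transcripts, relative to those with the shortest, stood at 0.08, -0.16, -0.49 and -0.29 log2 in day 5 replicates 1 to 4, and at 0.09, 0.14, 0.22 and 0.25 at day 33 (exact permutation test, two-sided p = 0.0286, adjusted 0.0762). Genes with the highest 20% of GC, relative to the lowest, stood at -0.09 to 0.62 at day 5 and at -0.40 to -0.08 at day 33, in overlapping ranges (exact permutation test, two-sided p = 0.0571, adjusted 0.114). Replicate 3 of day 5 stood furthest out of the HFD libraries in both measures. Between days 5 and 33 on chow the exact permutation p of these measures ran from 0.286 to 0.429, and the difference between diets was not tested. Replicate 3 of chow day 13 lay as far out, at -0.52 for length and 0.56 for GC. Values after removing, within each library, the trend over length and GC, and values without day 5 replicate 3, are therefore given beside the results described at length. The source of these trends was not tested.

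**Figure D1:**
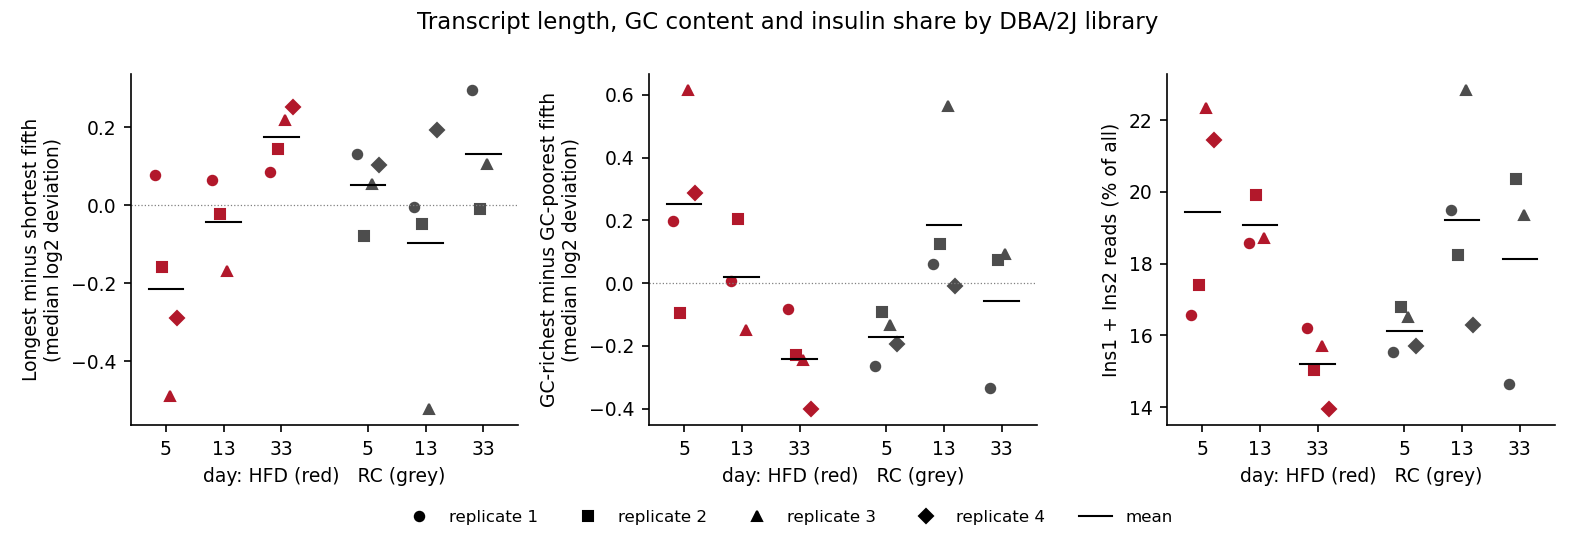
Share of reads in Ins1 and Ins2, and the length and GC trends (log2), in every DBA/2J library by day. Red symbols are HFD, grey symbols RC, 1 symbol per library with 1 shape per replicate number, and horizontal lines mark the group means. On HFD the insulin share is 16.6% to 22.3% at day 5 and 13.9% to 16.2% at day 33.

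Between day 5 and day 33 of HFD, 3407 genes passed the threshold, 1855 higher and 1552 lower at day 33. That is 23.3% of all genes tested, 12.7% higher and 10.6% lower (limma over all 69 libraries, Benjamini-Hochberg adjusted p under 0.05). Leaving out predicted and non-coding genes and the lowest 25% by mean level, the genes that rose furthest were Zfp871, a zinc-finger gene, Lnpep, the insulin-regulated aminopeptidase that travels with the glucose transporter GLUT4, and Inpp4b, a phosphoinositide phosphatase of the insulin signal. By the same rule, those that fell furthest were Cish, an inhibitor of cytokine receptors, Npy, which encodes neuropeptide Y, and Ovol2, a transcription factor that holds cells in the epithelial state. Genes called higher had a median transcript length of 5655 nt and 44.2% GC, those called lower 2526 nt and 55.8% GC, against 3341 nt and 49.5% GC for all genes. After correction for length and GC, 1084 genes passed, 570 higher (3.9% of all) and 514 lower (3.52%), and 707 of them were among the 3407 with the same sign. Without day 5 replicate 3, 850 genes passed, 848 of them among the 3407 with the same sign. Without replicates 3 and 4 of day 5, only 2 genes passed (Rnf112 and Gm5148, both lower), with 2081 at an unadjusted p under 0.05. Genes called higher made up 54.4% of all calls as deposited, 66.7% when libraries were scaled by their totals alone (2047 of 3068 genes) and 63.3% when every library was given the same median.

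Under that rule the 15 genes that rose most spanned log2 changes of 0.96 to 1.31, and the 15 that fell most spanned -0.83 to -1.73. Some genes of the lowest 25% moved further, among them Npas2, which is described with the clock genes. In 28 of these 30 genes the 4 day 33 libraries did not overlap the 4 day 5 libraries. The genes were picked by their change between these same libraries, so this count is not separate evidence. The share without overlap over all genes was not computed. With the length and GC correction 21 of the 30 still passed, and without day 5 replicate 3 also 21 passed. Both together left 10, namely Zfp871, Lnpep, Inpp4b, Lmbrd2, Klhl24, Tmtc3 and Uprt on the high side and Rnf112, Evpl and Igsf9 on the low side. No gene of the 30 passed the test between the same days on chow, where only 1 of all 14604 genes did (0.00685%). With so few calls on chow, this does not show that the 30 changed differently on the 2 diets.

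**Figure D2:**
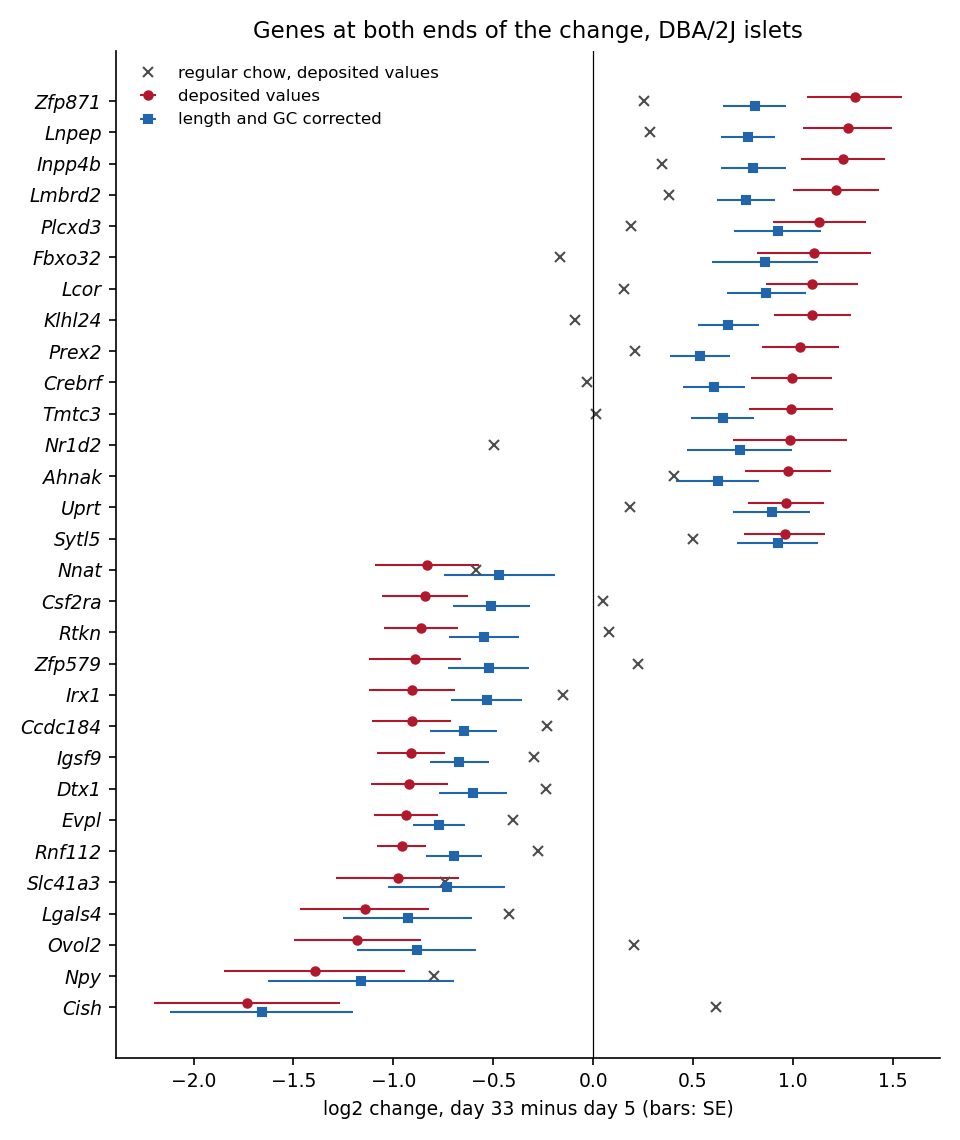
Change from day 5 to day 33 of HFD (log2, horizontal axis) of the 15 highest and 15 lowest named genes. Red points with bars are the change and its standard error from the deposited values, blue points with bars the same after correction for transcript length and GC, and crosses the change on chow. The red values run from -1.73 (Cish) to 1.31 (Zfp871), and all 30 blue points lie nearer to 0.

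Rnf112 (chr11:61448442-61454131, GRCm38), a RING-finger gene best known from neurons, stood at 3.20, 3.40, 3.49 and 3.34 log2 CPM at day 5, at 2.72, 2.79 and 2.77 at day 13, and at 2.43, 2.41, 2.35 and 2.41 at day 33. The 3 days did not overlap, and day 13 lay between the others. It fell by 0.96 log2 units (SE 0.12, adjusted p = 1.9e-06), and by 0.69 after correction (adjusted p = 0.0019). On chow it stood at 2.78 to 3.06 at day 5 and 2.55 to 2.79 at day 33. Evpl (chr11:116220559-116238077), which encodes envoplakin of the epithelial cell envelope, went from 4.71, 4.39, 4.92 and 4.68 through 4.23, 4.28 and 4.05 to 3.95, 3.76, 3.46 and 3.79. Every day 33 library was below every day 5 library, and it fell by 0.93 (SE 0.16, adjusted p = 0.0002; 0.0056 with the correction and without replicate 3). Igsf9, an adhesion molecule of the immunoglobulin family, fell by 0.91 (SE 0.17, adjusted p = 0.00033). These 3 genes held under every one of these settings except that Evpl and Igsf9 did not pass without both replicates 3 and 4 of day 5.

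On the high side, Zfp871 (chr17:32765496-32788287) stood at 5.98, 5.07, 4.30 and 4.87 log2 CPM at day 5 and at 6.11, 6.27, 6.42 and 6.66 at day 33. Replicate 1 of day 5 lay close to the day 33 libraries and replicate 3 furthest from them. The rise was 1.31 (SE 0.24), or 2.48-fold (adjusted p = 0.00029), and 0.81 after correction (adjusted p = 0.0014). Lnpep (chr17:17521410-17625050) showed the same order of day 5 libraries, at 6.22, 5.29, 4.67 and 5.25 against 6.36, 6.50, 6.74 and 6.93, a 2.42-fold rise (log2 1.27, SE 0.22, adjusted p = 0.00023). Inpp4b (chr8:81342556-82127914) rose from 2.25, 2.39, 1.68 and 1.06 to 3.22, 2.90, 3.07 and 3.18, with 2.86, 2.53 and 2.81 at day 13 (2.38-fold, log2 1.25, SE 0.21, adjusted p = 0.0002). Its day 13 libraries were all above its day 5 libraries. The other high genes include Lmbrd2, Plcxd3, Lcor (a co-repressor of nuclear receptors), Prex2 (an exchange factor for the GTPase Rac), Ahnak (a giant scaffold protein), Uprt, Sytl5 (a granule-tethering protein of the synaptotagmin-like family) and Tmtc3 (an ER protein), with rises of 0.96 to 1.22.

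Some of the genes that fell depended on single libraries or on the correction. Npy stood in overlapping ranges at the 2 days (log2 change -1.39, SE 0.45, adjusted p = 0.021; 0.11 after correction). Lgals4, the lectin galectin-4, was at 4.40 in day 5 replicate 3 and at 2.58 to 2.76 in the other day 5 libraries, and its fall of 1.14 (SE 0.32, adjusted p = 0.0087) became 0.71 without that library (adjusted p = 0.15). Ovol2 fell from 4.17, 3.81, 4.90 and 4.62 to 3.37, 3.20, 3.17 and 3.04, with 4.22 to 4.40 at day 13, without overlap between days 5 and 33 (-1.18, SE 0.32, adjusted p = 0.0064; 0.056 after correction). The others, with falls between 0.83 and 0.98 on the log2 scale, were Slc41a3 (a magnesium transporter), Dtx1 (a regulator of Notch), Ccdc184, Irx1 (an alpha-cell transcription factor), Zfp579, Rtkn, Csf2ra (a receptor chain for the cytokine GM-CSF) and Nnat (neuronatin, an ER protein of beta cells). After correction Slc41a3 (adjusted p = 0.11), Zfp579 (0.10), Csf2ra (0.092) and Nnat (0.31) did not pass, nor did these 4 without day 5 replicate 3 (adjusted p from 0.053 to 0.076).

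Genes of the circadian clock moved in both directions. Of 20 clock genes measured, 4 rose (Rora, Clock, Nr1d2 and Hlf) and 2 fell, Npas2 among them, against 12.7% and 10.6% of all genes, and the median change was 0.24 (all genes -0.02; the same list on chow 0.05). Promoters of a pair of clock genes that moved in opposite directions, and of Crebrf, a high gene with E-boxes, are shown because the clock acts through E-boxes (CACGTG, bound by BMAL1 with CLOCK or NPAS2) and ROR half-sites (AGGTCA, bound by ROR and REV-ERB proteins). Each is the 250 bases before the RefSeq start on the gene's strand (GRCm38.p6), 5′ to 3′, with matches on either strand in capitals. They lie at chr1:39194022-39194271 (+, Npas2), chr14:18239107-18239356 (-, Nr1d2) and chr17:26715400-26715649 (+, Crebrf).
Npas2: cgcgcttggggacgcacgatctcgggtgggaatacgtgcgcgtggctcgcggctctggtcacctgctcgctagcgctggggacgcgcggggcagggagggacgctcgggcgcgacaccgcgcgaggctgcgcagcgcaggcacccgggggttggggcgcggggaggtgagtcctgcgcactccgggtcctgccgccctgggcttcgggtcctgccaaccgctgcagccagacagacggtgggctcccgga
Nr1d2: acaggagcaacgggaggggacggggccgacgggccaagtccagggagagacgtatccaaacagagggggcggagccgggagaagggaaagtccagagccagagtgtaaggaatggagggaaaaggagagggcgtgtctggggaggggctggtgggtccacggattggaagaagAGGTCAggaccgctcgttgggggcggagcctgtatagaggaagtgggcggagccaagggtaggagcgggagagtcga
Crebrf: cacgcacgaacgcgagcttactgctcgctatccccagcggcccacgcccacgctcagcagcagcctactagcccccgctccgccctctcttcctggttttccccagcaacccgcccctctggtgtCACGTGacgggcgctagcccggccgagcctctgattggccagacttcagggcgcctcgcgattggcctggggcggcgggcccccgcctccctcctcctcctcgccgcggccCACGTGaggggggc
The Nr1d2 window holds 1 ROR half-site that starts 77 bases before the start, the Crebrf window 2 E-boxes at 125 and 14 bases before it, and the Npas2 window neither. Over the clock list, 17 genes had 22 windows, of which an E-box was found in those of 5 genes and a ROR half-site in those of 4. Among all 32851 RefSeq windows of this length, 6.02% hold an E-box and 14.0% a ROR half-site. A match is a run of letters and was not tested as a binding site.

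Npas2 (chr1:39193731-39363236) stood at 2.72, 2.95, 3.11 and 2.71 log2 CPM at day 5, at 3.09, 2.83 and 2.41 at day 13 and at 1.05, 0.87, 1.46 and 0.74 at day 33. All 4 day 33 libraries were below every other DBA/2J library, chow included, where the levels were 2.98 to 3.19 at day 5, 1.66 to 3.35 at day 13 and 2.75 to 2.99 at day 33. It fell by 1.84 (SE 0.57), to 0.28 times the day 5 level (adjusted p = 0.015; 0.041 after correction; 0.069 without day 5 replicate 3). The SE comes from a spread shared by all groups, and Npas2 varied more in other groups (SD 1.16 in C57BL/6J HFD day 5) than in these (SD 0.20 and 0.31). When only the compared groups entered the model, the adjusted p was 0.0024. Arntl, the main partner of CLOCK and NPAS2, stood at 4.83, 4.62, 4.52 and 4.47 at day 5, 4.86, 4.83 and 4.33 at day 13 and 3.93, 3.36, 3.88 and 3.77 at day 33. Day 33 lay below every library of the earlier days, which overlapped each other, but its change of -0.87 (SE 0.37) did not pass (adjusted p = 0.074; 0.0097 with only the compared groups). On chow Arntl was at 4.93 to 5.08 at day 5, at 3.70 to 4.96 at day 13 and at 4.78 to 5.29 at day 33, so 1 chow library of day 13 lay within the HFD range of day 33.

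Nr1d2, which encodes REV-ERB beta, the repressor of Arntl and Npas2, moved the other way. It stood at 6.79, 6.72, 6.18 and 6.31 at day 5, at 6.32, 6.30 and 6.85 at day 13 and at 7.21, 7.62, 7.43 and 7.68 at day 33. Day 33 was above every library of the earlier days, and day 13 overlapped day 5. It rose 1.98-fold (log2 0.99, SE 0.28, adjusted p = 0.01; 0.073 after correction; 0.068 without day 5 replicate 3), while on chow it was at 6.39 to 6.58 at day 5, 6.38 to 6.94 at day 13 and 5.65 to 6.32 at day 33. Hlf, an output transcription factor of the clock, rose by 0.80 (SE 0.29, adjusted p = 0.036; 0.19 after correction; 0.21 without day 5 replicate 3). Rora rose by 0.63 and Clock by 0.45 as deposited, yet after correction they stood at 0.12 (adjusted p = 0.3) and -0.02 (adjusted p = 0.91), and both have long transcripts. Only Npas2 of the 20 clock genes passed after correction, and only Rora without day 5 replicate 3. Clock genes cycle over the day, and the hour of isolation is not given in the sources used here, so hour and day on diet cannot be told apart.

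**Figure D3:**
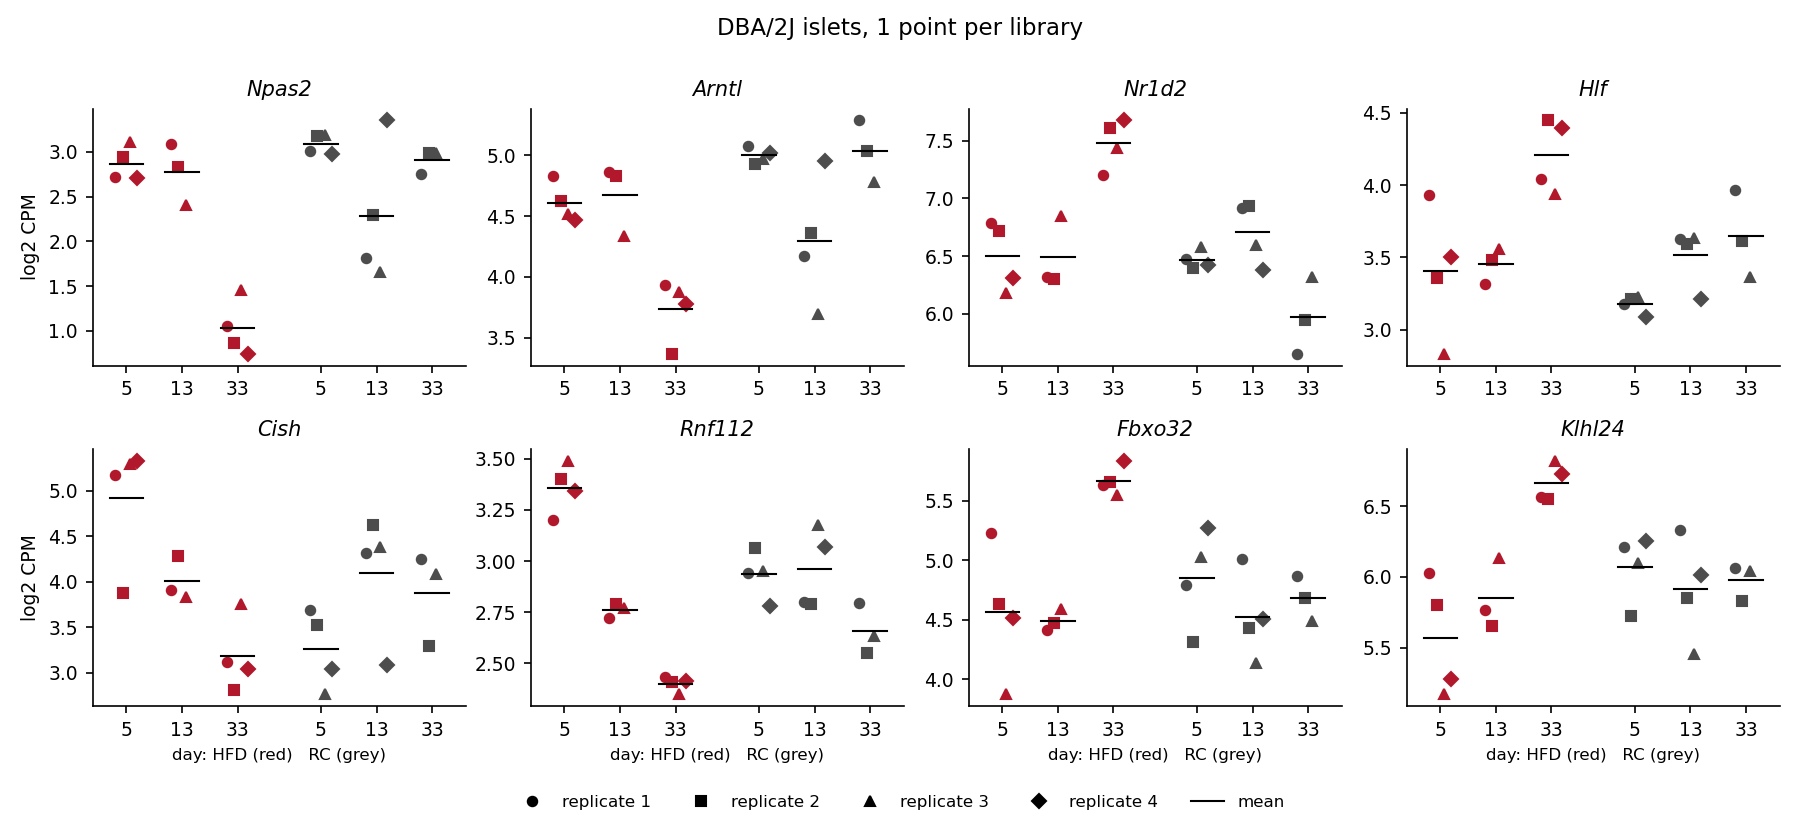
Levels (log2 CPM, vertical axis) of single genes in every DBA/2J library at days 5, 13 and 33. Red symbols are HFD and grey symbols RC, 1 per library, and horizontal lines mark the group means. Npas2 stands at 0.74 to 1.46 on HFD at day 33, at 2.41 or higher in the other HFD libraries and at 1.66 to 3.35 on chow, where day 13 is the widest group.

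Cish and Socs2, which damp the prolactin and growth hormone signal, fell. Through STAT5 these hormones act on the beta cell and raise both genes, and Prlr encodes the prolactin receptor. Cish (chr9:107296026-107302784) stood at 5.17, 3.88, 5.29 and 5.33 at day 5, at 3.91, 4.28 and 3.83 at day 13, and at 3.12, 2.82, 3.75 and 3.05 at day 33. Replicate 2 of day 5 stood apart below the rest of its group, at the level of day 13, and days 5 and 33 did not overlap. Cish fell by 1.73 (SE 0.47), to 0.301 times the day 5 level (adjusted p = 0.0063; 0.019 after correction; 0.045 without day 5 replicate 3). The chow libraries were at 2.76 to 3.69 at day 5, 3.08 to 4.62 at day 13 and 3.29 to 4.25 at day 33, overlapping the HFD level of day 33. Socs2 fell from 4.47, 4.76, 4.88 and 4.90 to 4.22, 3.95, 4.35 and 4.26 (-0.56, SE 0.20, adjusted p = 0.035; 0.027 after correction; 0.13 without day 5 replicate 3). Prlr rose from 8.43, 8.45, 7.89 and 8.24 to 8.65, 8.76, 9.03 and 8.97 (0.60, SE 0.19, adjusted p = 0.021), but its transcript is long and the corrected change was 0.11 (adjusted p = 0.77). Of the 9 genes on the list of serotonin and pregnancy-type genes, 2 rose (Prlr and Slc18a1, a vesicle transporter of monoamines) and 2 fell (Cish and Socs2), against 12.7% and 10.6% of all genes, and after correction Cish and Socs2 were the 2 that passed.

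Fbxo32, Klhl24 and Crebrf, of the 15 highest, rose together with the receptors of the insulin signal. Fbxo32, the ubiquitin ligase atrogin-1 and a classic target of FOXO factors, stood at 5.23, 4.64, 3.87 and 4.52 at day 5, at 4.42, 4.47 and 4.59 at day 13 and at 5.63, 5.66, 5.55 and 5.84 at day 33, above all earlier libraries (2.15-fold, log2 1.11, SE 0.28, adjusted p = 0.0045; 0.036 after correction; 0.062 without day 5 replicate 3). Klhl24, a ubiquitin-ligase adaptor, rose from 6.03, 5.80, 5.17 and 5.28 to 6.56, 6.55, 6.82 and 6.73 (2.14-fold, log2 1.10, SE 0.19, adjusted p = 0.00023; 0.0047 after correction). Crebrf, a regulator of energy storage, rose from 6.44, 5.98, 5.31 and 5.60 to 6.70, 6.70, 6.89 and 7.01 (1.99-fold, log2 0.99, SE 0.20, adjusted p = 0.00071; 0.011 after correction). In all 3 the day 33 libraries were tightly grouped and above every day 5 library, while the day 5 libraries spread widely with replicate 3 lowest. Txnip, a thioredoxin inhibitor induced by glucose, rose by 0.50 (SE 0.17, adjusted p = 0.028; 0.072 after correction; 0.14 without day 5 replicate 3). Of 23 genes of insulin and IGF signalling, 5 rose, among them Igf2r, Insr, Pik3ca and Igf1r, and Akt1 fell, with a median change of 0.14. That is 21.7% higher and 4.3% lower, against 12.7% and 10.6% of all genes. Insr, the insulin receptor, rose by 0.50 (SE 0.09, adjusted p = 0.00038), and by 0.16 after correction (adjusted p = 0.033). Pik3ca, a PI3 kinase subunit, rose by 0.40 as deposited and stood at -0.06 after correction. With correction 2 genes of this list passed higher and 2 lower.

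Receptor genes of capillary endothelium rose from day 5 to day 33. In bulk RNA, more cells of a type and more RNA per cell cannot be told apart. Of 15 endothelial markers, 4 rose (Flt1, Tek, Kdr and Esm1) and 1 fell (Egfl7), which is 26.7% higher against 12.7% of all genes. Flt1, the VEGF receptor 1, stood at 7.09, 6.94, 6.80 and 6.91 at day 5, at 7.11, 7.12 and 7.09 at day 13 and at 7.48, 7.30, 7.29 and 7.50 at day 33. Day 33 lay above every earlier library (0.46, SE 0.08, adjusted p = 0.00023; 0.0028 after correction; 0.03 with correction and without day 5 replicate 3). Tek, the angiopoietin receptor TIE2, rose from 3.96, 4.04, 3.79 and 3.77 through 4.13, 4.13 and 4.43 to 4.97, 4.33, 4.59 and 4.38 (0.68, SE 0.14, adjusted p = 0.00083; 0.0081 after correction). Kdr, the main VEGF receptor, rose by 0.38 (SE 0.09, adjusted p = 0.0016) and Esm1, a marker of sprouting vessels, by 0.37 (SE 0.11, adjusted p = 0.0091; 0.082 after correction; 0.085 without day 5 replicate 3). The median change of the list was 0.09, and 0.10 on chow, and its summed level ran from 9.73 to 9.84 log2 CPM at day 5, 9.85 to 9.92 at day 13 and 9.86 to 10.29 at day 33. After correction 4 of the 15 passed higher, namely Flt1, Tek, Kdr and Plvap, which encodes a protein of capillary pores, and none lower. Without day 5 replicate 3, Flt1, Tek and Kdr passed.

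In the endoplasmic reticulum (ER), where proinsulin folds, 8 of 30 genes for chaperones and ER-associated degradation rose (Sel1l, Ero1l, Hspa13, Dnajc3, Ero1lb, Edem1, Dnajb9 and Canx) and none fell, against 12.7% of all genes higher. Sel1l, which holds the degradation complex at the ER membrane, stood at 7.66, 7.55, 7.26 and 7.43 at day 5, at 7.69, 7.57 and 7.83 at day 13 and at 7.99, 7.95, 8.19 and 8.09 at day 33. Day 33 was above every earlier library (0.58, SE 0.10, adjusted p = 0.0002; 0.0058 after correction; 0.047 with correction and without day 5 replicate 3). Ero1l, an oxidase that forms disulphide bonds, rose by 0.48 (adjusted p = 0.00095; 0.0085 after correction). Dnajc3, a co-chaperone and inhibitor of PERK, rose by 0.43 as deposited and stood at 0.18 after correction (adjusted p = 0.43), and Hspa5, the main ER chaperone BiP, was at 0.15 (adjusted p = 0.48). The median of the list was 0.13, below its 0.26 on chow, where none of these genes passed and only 1 of all genes did. With correction 3 of the 30 passed, and without day 5 replicate 3 only 2 did. Of 28 genes of the integrated stress response only Shmt2 passed, lower.

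The insulin, glucagon, somatostatin and amylin genes did not pass the threshold, although Ins2 and Sst did not overlap between days 5 and 33. Ins2 was at 16.95, 16.92, 17.38 and 17.33 at day 5 and at 16.80, 16.71, 16.77 and 16.60 at day 33, without overlap but short of the threshold (-0.42, SE 0.21, adjusted p = 0.14). Ins1 (-0.33, adjusted p = 0.17), Gcg (-0.44, adjusted p = 0.069), Sst (-0.36, adjusted p = 0.071) and Iapp (0.02, adjusted p = 0.91) did not pass. When libraries were weighted by their own spread (array weights), Ins1 (-0.51, adjusted p = 0.00057), Ins2 (-0.56, adjusted p = 0.0016), Gcg (-0.40, adjusted p = 0.017) and Sst (-0.28, adjusted p = 0.03) passed lower, and with voom weights Gcg did (-0.45, adjusted p = 0.04). Of all 14604 genes, 3850 passed lower and 3490 higher with array weights, and 1461 lower with voom weights. These hormone calls are thus not particular to hormone genes. Of 20 hormone and processing genes, Pcsk1, a prohormone convertase, rose by 0.30 and Chga, a granule protein, fell by 0.39, and after correction they stood at 0.03 and -0.04. Of 30 beta-cell identity genes, 5 rose (Sytl4, Ero1lb, Cacna1d, Prlr and Slc2a2) and 4 fell (Kcnj11, Abcc8, Gipr and Mlxipl), with a median of -0.05, and these shares of 16.7% and 13.3% are near those of all genes (12.7% and 10.6%). Slc2a2, the glucose transporter of the beta cell, rose by 0.38 and Kcnj11, the pore of its ATP-sensitive potassium channel, fell by 0.31, and after correction they stood at 0.06 and -0.05. One of the 30 passed after correction.

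Among alpha-cell markers 3 of 14 fell (Irx1, Ttr and Irx2) and 2 rose (Etv1 and Dpp4). That is 21.4% lower and 14.3% higher, against 10.6% and 12.7% of all genes. Ttr, transthyretin, went from 10.16, 10.16, 10.04 and 10.40 to 9.72, 9.70, 9.44 and 9.44, without overlap (-0.61, SE 0.15, adjusted p = 0.0023; 0.0053 after correction; 0.02 with correction and without day 5 replicate 3). Irx1 fell by 0.91 (SE 0.21, adjusted p = 0.0022; 0.049 after correction). Ttr and Irx1 were the 2 that passed after correction. Gcg, which defines alpha cells, is given above and did not pass.

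Most genes of energy metabolism and translation stood lower in the deposited values, and little of this was left after correction. Of 20 glycolysis genes 7 fell, among them Eno1, Pkm, Tpi1, Gapdh, Pfkl and Gpi1, and none rose, with a median of -0.24 (-0.03 on chow). Of 65 genes of oxidative phosphorylation 9 fell and none rose, with 61 of the 65 below 0. Of 75 cytosolic ribosomal protein genes 21 fell and none rose, with 73 below 0 and a median of -0.19 (-0.10 on chow), against 10.6% of all genes lower. After correction 1 glycolysis gene passed lower, 2 oxidative phosphorylation genes passed lower and 1 higher, and 4 ribosomal genes passed lower and 1 higher. Without day 5 replicate 3, no glycolysis or ribosomal gene and 1 oxidative phosphorylation gene passed. Median transcript lengths of the last 2 lists were 1141 and 1106 nt, and that of glycolysis 2756.5 nt, against 3341 nt for all genes. Summed levels of oxidative phosphorylation (12.32 to 12.67 log2 CPM at day 5, 12.37 to 12.41 at day 33) overlapped between the days. Those of ribosomal genes (13.78 to 14.01 and 13.69 to 13.84) also overlapped, and those of glycolysis (11.03 to 11.47 and 10.90 to 11.02) did not.

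**Figure D4:**
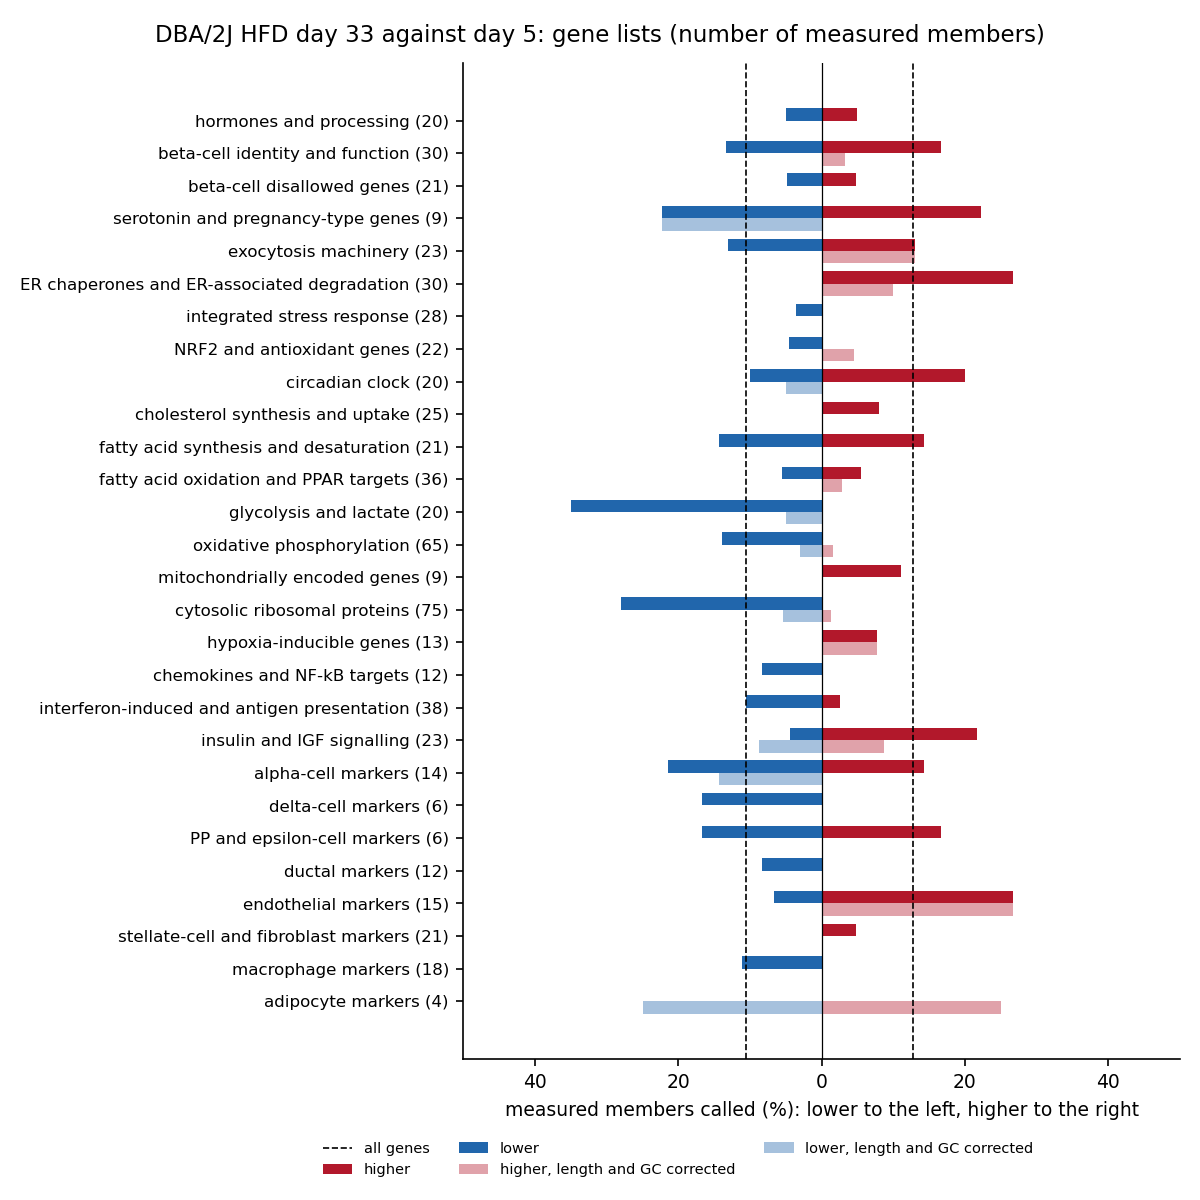
Share of the measured members of each gene list (percent, horizontal axis) that passed higher (right) or lower (left) at day 33 against day 5 of HFD. Red is higher and blue lower, full bars are the deposited values, pale bars the values corrected for transcript length and GC (lists with no call in either are left out), and dashed lines the share of all genes (12.7% higher and 10.6% lower). The bars of ribosomal and glycolysis genes shrink with the correction, from 21 of 75 to 4 and from 7 of 20 to 1, while 4 of 15 endothelial genes pass higher in each, not all of them the same genes.

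No gene passed at day 33 against day 5 among 44 of DNA replication and mitosis, 35 of them below 0, with a median of -0.21 (-0.15 on chow). From day 5 to day 13 the median change of this list was 0.68. Its summed level was 8.24 to 9.11 log2 CPM at day 5, 9.24 to 9.37 at day 13 and 8.67 to 9.05 at day 33. The list was not tested as a set. The proliferation marker Mki67 stood at 2.71, 3.80, 3.64 and 3.72 at day 5, at 4.24, 4.68 and 4.25 at day 13 and at 3.10, 3.27, 3.61 and 3.33 at day 33. Day 13 was the highest and days 5 and 33 overlapped (-0.14, adjusted p = 0.85). Among macrophage markers 2 of 18 fell, Cd68, a lysosomal protein (-0.82, SE 0.24, adjusted p = 0.012), and C1qc, and neither passed after correction. Of 38 interferon and antigen presentation genes 4 fell (Ifi35, Tap1, Bst2 and Tap2) and Gbp2 rose. Of 23 exocytosis genes 3 rose (Sytl4, Rims2 and Cacna1d) and 3 fell (Stx1a, Napa and Syt5). Of 21 genes for fatty acid synthesis 3 rose (Acaca, Lpin1 and Elovl6) and 3 fell (Agpat2, Fads2 and Mlxipl), 14.3% each way and near the share of all genes, and none passed after correction. The counts were 2 of 36 for fatty acid oxidation higher (Ppargc1a and Txnip) and 2 lower (Acaa1a and Acads), and 2 of 25 for cholesterol synthesis higher (Insig1 and Idi1). These shares, 5.6% each way and 8% higher, lie below those of all genes.

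Few genes of the other lists passed. Among all genes the shares were 12.7% higher and 10.6% lower. Of 21 genes disallowed in beta cells, Arap2 rose and 1 fell. Single genes passed among 22 NRF2 targets (Gpx3, lower), 13 hypoxia-inducible genes (Kdm3a, higher), 12 chemokine and NF-kB genes (Cx3cl1, lower), 9 mitochondrially encoded genes (mt-Rnr2, higher), 6 delta-cell markers (Rbp4, lower), 12 ductal markers (Krt8, lower) and 21 stellate-cell and fibroblast markers (Rgs5, higher). Of 6 PP and epsilon-cell markers Etv1 rose and Npy fell, with a median of -0.26 (-0.18 on chow). No gene passed among 30 acinar markers, 19 immediate early genes, 7 lymphocyte, 7 Schwann-cell and 4 adipocyte markers or the 4 genes of the Reg family (limma), although 1 adipocyte marker passed higher and 1 lower after correction. All 4 genes of the Reg family, secreted proteins of regenerating islets and acinar tissue, were above 0, with a median of 0.64 (0.98 on chow). The summed level of the acinar markers, which come from exocrine tissue carried along with islets, was 11.92 to 13.45 log2 CPM at day 5, 9.66 to 12.51 at day 13 and 10.02 to 13.68 at day 33.

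At day 13 the picture was partial. Against day 5, 96 genes passed (48 higher and 48 lower, 0.657% of all; 2420 at an unadjusted p under 0.05), and against day 33 only 7 passed (3 higher and 4 lower at day 33, 0.0479%; 2044 unadjusted). These comparisons share libraries with each other and with that of days 33 and 5. Among the genes named for this step by the same rule, the rise to day 13 was largest in Slc5a3, the transporter of the osmolyte myo-inositol, at 2.60, 2.44, 2.24 and 2.56 at day 5, at 4.11, 3.90 and 3.14 at day 13 and at 2.57, 3.19, 3.77 and 2.86 at day 33 (1.26 from day 5 to 13, adjusted p = 0.03). Day 13 was above day 5 in all libraries, and day 33 lay between and overlapped both. Zfp366 (0.97), Inpp4b (0.89), Atad2 (0.60), Nfya (0.60) and Ints8 (0.59) also rose, and Ccdc184 (-0.83), Igsf9 (-0.80), Dennd6b (-0.77), Miip (-0.76), Carmil3 (-0.71) and Fev (-0.71) fell by day 13. Fev, a transcription factor of the serotonin programme, was at 3.34 to 3.84 at day 5, 2.75 to 2.85 at day 13 and 2.46 to 2.96 at day 33, so the later days overlapped each other and not day 5. The count of 96 fell to 4 without day 5 replicate 3, to 35 without replicate 4, to 3 and 5 without day 13 replicates 1 and 2, and rose to 256 without day 5 replicate 1.

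From day 13 to day 33 Vps13b, a lipid-transfer protein of the Golgi (0.60, adjusted p = 0.013), Tfb2m, a mitochondrial transcription factor (0.51, adjusted p = 0.029), and Casp9, the initiator caspase of the mitochondrial death pathway (0.45, adjusted p = 0.019), rose. Bub3, a mitotic checkpoint gene, fell by 0.30 (adjusted p = 0.038). With only the compared groups in the model none of these genes passed (limma, adjusted p = 0.15 for Vps13b, 0.23 for Tfb2m, 0.20 for Casp9 and 0.14 for Bub3). Each also failed with 1 library left out, where the highest adjusted p ran from 0.16 (Vps13b) to 0.36 (Casp9 and Bub3). The other 3 of the 7, Gm14418, Zfp970 and Gm14403, named because they complete the count, are neighbours on chromosome 2 (chr2:177387124-177398320, chr2:177464733-177478129 and chr2:177498215-177509763, GRCm38). Zfp970 was at 2.09, 2.22 and 1.64 in the day 13 HFD libraries, at or near the floor of the table (-3.54) at -3.54 to -2.69 at day 5 and -3.54 to -2.71 at day 33, and at -0.60, -3.54, 0.95 and 1.86 on chow at day 13. C57BL/6J libraries stood at 2.34 to 3.25 and BALB/cJ at 2.29 to 3.48. Gm14403 was at 2.69, 3.40 and 1.82 on HFD at day 13, and Gm14418 at 0.05, 0.48 and 0.53. Thus the day 13 libraries were high where the other DBA/2J days were low. As a check of the strain labels, 41 genes separated the 15 DBA/2J libraries of days 5 and 33, on both diets, from the 47 libraries of the other strains by more than 2 log2 units. All 32 that are higher in DBA/2J were DBA/2J-like in all 3 day 13 HFD libraries, as were 7 of the 9 that are lower, the exceptions being Zfp970 and Gm14403. The day 13 comparisons of these 3 genes were therefore not read as a change over time on the diet. The genes belong to a family of near-identical zinc-finger copies, so their counts are uncertain.

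**Figure D5:**
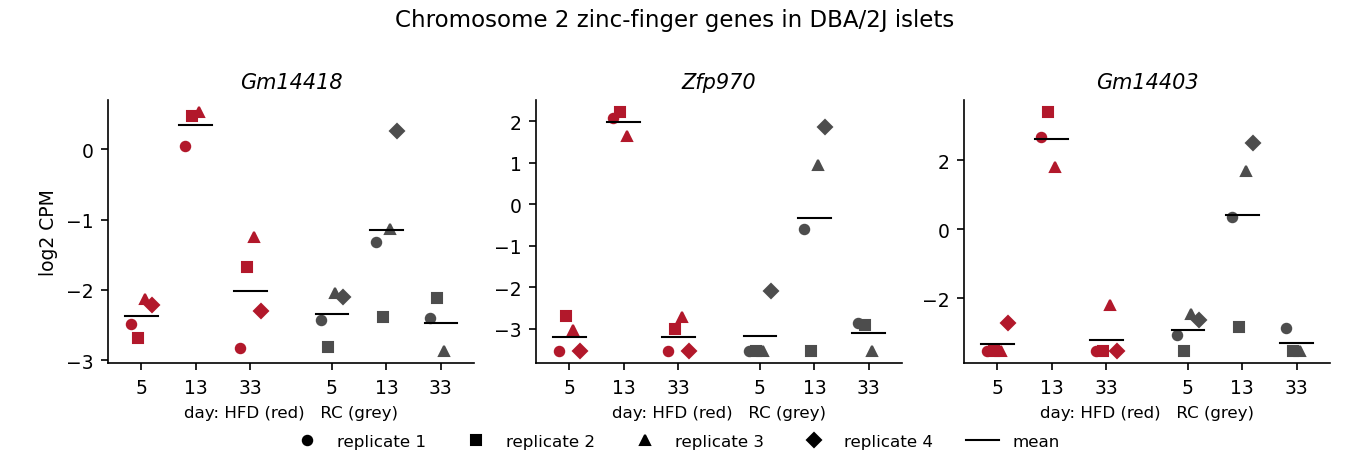
Levels (log2 CPM, vertical axis) of the neighbouring genes Gm14418, Zfp970 and Gm14403 in each DBA/2J library by day. Red symbols are HFD, grey symbols RC, and horizontal lines mark the group means. On HFD, Zfp970 stands at 1.64 to 2.22 at day 13 and at -2.69 or lower at days 5 and 33.

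On chow, between the same days, 1 gene passed (Ino80c, lower, 0.00685% of all; 1591 at an unadjusted p under 0.05, limma). That count is 3407 on HFD, but the difference between diets was tested directly and passed in 2 genes (0.0137%; 3494 unadjusted). Ino80c, a subunit of the INO80 chromatin remodeller, went from 4.21 ± 0.07 to 4.35 ± 0.07 on HFD (SD, n = 4 and 4) and from 4.42 ± 0.13 to 3.90 ± 0.12 on chow (n = 4 and 3), a difference of 0.66 (SE 0.13, adjusted p = 0.049). Arl6ip6 went from 3.69 ± 0.14 to 4.10 ± 0.11 on HFD and from 4.17 ± 0.16 to 3.88 ± 0.14 on chow (difference 0.70, SE 0.14, adjusted p = 0.049). The 30 genes at the ends are thus not shown to have changed differently on the 2 diets. The closest among the genes described were Nr1d2, with a difference of 1.48 (SE 0.42, adjusted p = 0.073), and Cish, with -2.35 (SE 0.69, adjusted p = 0.075), while Npas2 had -1.66 (adjusted p = 0.21). The count of 2 became 794 without HFD day 5 replicate 1, 1060 without replicate 2 and 179 without chow day 33 replicate 1, and 0 without any of several others.

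In the other strains the same days of HFD gave another course for many genes. The change from day 5 to day 33 differed between DBA/2J and C57BL/6J in 1726 genes (1049 higher and 677 lower in DBA/2J, 11.8% of all), and between DBA/2J and BALB/cJ in 957 (603 higher and 354 lower, 6.55%). Plekhh1 rose by 0.32 in DBA/2J and fell by 0.48 in C57BL/6J (difference 0.80, SE 0.13, adjusted p = 0.001). Ide, the insulin-degrading enzyme, moved by 0.32 and -0.82 (difference 1.13, SE 0.19, adjusted p = 0.0014), and Btaf1, Etv1 and Wwp1 likewise differed by 1.01, 1.12 and 0.75. Crmp1, a neuronal microtubule regulator, differed by -0.70. Against BALB/cJ, Bach1, a repressor of antioxidant genes, moved by 0.62 in DBA/2J and -0.30 in BALB/cJ (difference 0.92, SE 0.16, adjusted p = 0.0022). C1qa, a complement gene of macrophages, moved by -0.32 and 0.94 (difference -1.25, SE 0.23, adjusted p = 0.0042), and Kbtbd8 (1.38), Reep2 (-0.90), Prpf31 (-0.52) and H2afy (-0.41) were the others named. With the length and GC correction the counts were 147 and 112, and without DBA/2J day 5 replicate 3 they were 119 and 14. With only the compared groups in the model they were 2 and 13.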

How the data were processed

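Islet mRNA (RNA quality numbers 8.2 to 9.3, 250 ng per library) was prepared with a stranded poly(A) kit and read as 125 bp single ends, per the labels' protocols. Per the submitters' processing notes, the build was GRCm38 and the tools were edgeR (no version), HTSeq 0.9.1 and STAR 2.5.3a. The authors deposited log2 CPM values of 14604 genes in 69 libraries, normalized between libraries. For 3 of the 72 samples the table held no column, so they were not analysed here, among them 1 of DBA/2J HFD day 13 and 1 of DBA/2J RC day 33. Every library shares a floor of -3.54 log2 CPM (0.0862 CPM), from which whole reads came out for 100% of the values (tolerance 0.05 reads), so depth is known. Replicates differed by more than sampling noise. Gene identifiers were matched to GENCODE release 21 (14589 matched), and promoter windows are from RefSeq (GRCm38.p6).

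A linear model with 1 mean per group of strain, diet and day (18 groups) was fitted with limma (version 3.58.1, R 4.3.3; lmFit, eBayes with trend) over all 69 libraries. Tests are two-sided, with Benjamini-Hochberg adjustment over all 14604 genes in each comparison and 0.05 as the threshold. Values after SE are standard errors of log2 changes, and those are on the scale of the deposited values, whose prior count (about 2) understates changes of low genes. The correction subtracts, in each library, the trend over length and GC content of the longest transcript. It was added after the data were seen, and it also removes real changes that run with length or GC. How the model performs when libraries differ in these trends, or when a single library stands far out, was not tested. Alternatives were a filter (above 1 log2 CPM in at least 4 libraries), other scalings and priors, other weights, fewer groups and left-out libraries.

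Named genes leave out predicted, pseudo- and non-coding genes and the lowest 25% by mean. They are the 15 highest and 15 lowest changes past the threshold, 6 at each end for comparisons with day 13, the 6 lowest p for differences between diets or strains, the members of each list with the lowest p (at most 4), and fixed hormone, beta-cell and clock genes. Hlf, Gm5148, Calcrl, Nrp1 and the chromosome 2 genes were named after their values were seen, as were list members given only as called. The libraries, the 34 lists and the genes were chosen with earlier results of these data known. Some genes that this rule selects are not reported here.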

Additional observations from a re-analysis of the deposited data

Results flagged for a closer look

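In groups of 4 libraries, a single value stood far from the other 3 in 12 of 242 gene and group pairs (4.96%), and chance alone marks about 1 in 20. In HFD day 5 these were Cish in replicate 2 (3.88 log2 CPM, lowest), Lgals4 in replicate 3 (4.40, highest), Pik3ca in replicate 3 (5.88, lowest), and Cacna1d (7.55, highest), Mki67 (2.71, lowest) and Fev (3.84, highest) in replicate 1. In HFD day 33 they were Dtx1 in replicate 4 (2.31, lowest), Nkx6-1 (8.28) and Carmil3 (6.38) in replicate 1 (both lowest), and Aldh1a3 (1.77), Tfb2m (3.57) and Crmp1 (5.12) in replicate 3 (all highest).

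Changes from day 5 to day 33 that differed between groups by a test of the difference itself (limma) numbered 2 genes between diets, 1726 against C57BL/6J and 957 against BALB/cJ. By gene, the differences between diets were 0.66 for Ino80c and 0.70 for Arl6ip6. Against C57BL/6J they were 0.80 for Plekhh1, 1.13 for Ide, 1.01 for Btaf1, 1.12 for Etv1, -0.70 for Crmp1 and 0.75 for Wwp1. Against BALB/cJ they were 0.92 for Bach1, -0.41 for H2afy, -0.90 for Reep2, 1.38 for Kbtbd8, -1.25 for C1qa and -0.52 for Prpf31.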

How the results depend on the processing

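For HFD day 33 minus day 5 the count of 3407 genes became 7340 with array weights, 1084 after the length and GC correction, 208 with the correction and without day 5 replicate 3, and 2 without day 5 replicates 3 and 4, while 142 genes passed with the same sign as deposited, corrected, without day 5 replicate 3 and with both. Leaving out 1 library at a time gave 850 (without day 5 replicate 3) to 4056. For day 13 minus day 5 (96) library totals gave 8 and the correction 221, and left-out libraries 3 to 256. For day 33 minus day 13 (7) library totals gave 4 and the filter 3, and left-out libraries 4 to 21. For chow (1) the values were 2 with library totals, 0 with equal medians, 4 with only the compared groups, 3 with voom weights and 16 after correction, and 0 to 3 with left-out libraries. For HFD minus RC (2) they were 1 with library totals, 0 with voom weights, 0 after correction, and 0 to 1060 with left-out libraries. With the title number as a replicate block 0 genes passed (2240 at an unadjusted p under 0.05, limma). Libraries with the same title number did not deviate together (correlations -0.31, 0.178, -0.101, 0.189, 0.0253 and -0.0147), so the numbers were not taken as pairs. Against C57BL/6J (1726) only the compared groups gave 2, the correction 147 and left-out libraries 119 (without DBA/2J day 5 replicate 3) to 3850 (without C57BL/6J day 33 replicate 1). Against BALB/cJ (957) they gave 13, 112, and 14 (without DBA/2J day 5 replicate 3) to 1957 (without DBA/2J day 5 replicate 1). The other settings kept these counts within 1.5 times.

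Of the 95 genes reported for day 33 minus day 5, 76 passed with the deposited values. After the correction 35 of the 95 passed, and with the correction and without day 5 replicate 3 only 14 did. Without day 5 replicates 3 and 4 only 1 passed. At the highest adjusted p with 1 library left out, 35 passed. Signs turned in few genes. After the correction these were Clock (-0.0178), Pik3ca (-0.0626), Iapp (-0.0512), Pdx1 (0.0910), Nkx6-1 (0.22), Cacna1d (-0.0135) and Ppy (0.0270). With the correction and without day 5 replicate 3 they were Clock (-0.0456), Pik3ca (-0.0115), Iapp (-0.0153), Pdx1 (0.10), Nkx6-1 (0.16), Agpat2 (0.00808) and Ppy (0.00239). With array weights they were Iapp (-0.0650) and Cpt1a (-0.14), without day 5 replicates 3 and 4 Mki67 (0.0790), and with 1 library left out Iapp (-0.000505). The cause of these shifts was not tested. Fits with edgeR and DESeq2 were not run; voom weights on the recovered reads were. Depth limits Zfp970, Gm14403, Gm14418 and Gm5148, which lie at or near the floor in some libraries.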

Other observations

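A pair of further genes of vessels and guidance, chosen after their values were seen, passed in each of the settings with the correction, without day 5 replicate 3 and with both. As they were picked with these values in view, this is not separate support for a change in vessels. Of all genes, 142 passed as deposited and in each of these settings. Calcrl, the receptor of adrenomedullin and CGRP, rose by 0.89 (SE 0.15, adjusted p = 0.0002, limma; 0.59 after correction), and Nrp1, a co-receptor of VEGF and semaphorins, rose by 0.67 (SE 0.12, adjusted p = 0.00026; 0.51 after correction). Gm5148, a predicted gene, stood at -0.86, -1.33, -2.66 and -1.84 at day 5 and at -2.82, -3.54, -2.71 and -2.79 at day 33, close to the floor of -3.54, and is given with no fold for that reason.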
